A study of Mus musculus with 82 samples.

Results

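Malat1, a nuclear long noncoding RNA, was followed in plasma cells captured from mouse oil granulomata and in whole granuloma sections. It was measured by 5 of the 22690 probe sets on the array, all those annotated to Malat1, on all 82 arrays, and is 1 of 12393 genes named there. No further probe set listed Malat1 among several symbols (0 probe sets). Malat1 was chosen by measured values: the captured-minus-whole difference of its lead probe set in study 2, which had the same sign in study 1. That difference is therefore given below as a description, without a test. The gene lies on the minus strand of chromosome 19, chr19:5795690-5802672 in GRCm38.p6, where RefSeq lists it as a long noncoding RNA gene of 6983 bases. Its annotated neighbours include Neat1, another nuclear noncoding RNA, 22036 bases away.

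Malat1 is transcribed by RNA polymerase II and is retained in nuclear speckles, where splicing factors are stored. Its 3′ end is not an ordinary poly(A) tail: RNase P cuts the primary transcript, a triple helix protects the new end, and the piece released downstream becomes a small tRNA-like RNA. It is among the most abundant noncoding RNAs of most mammalian cells, mice without it are viable, and it is often used to mark nuclear RNA in tissue preparations.

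The mice were BALB/c.iMycEμ, which carry a Myc gene inserted into the immunoglobulin heavy chain locus, and all of them received 0.5 ml of pristane oil into the peritoneal cavity at an age of at least 8 weeks. No group without pristane or without the inserted gene was analysed here. Captured cells were those stained by methyl green pyronin, a stain for plasma cells, taken by laser from frozen sections, and whole granuloma RNA came from sections left undissected, in which plasma cells are also present. Study 2 had 30 arrays of captured cells and 15 of whole granuloma from the same 15 specimen codes. There were 3 specimens each at days 7, 17, 33, 49 and 105. Titles of study 2 also hold a letter after the specimen number. The labels do not give its meaning, and it was not used. Captured arrays of specimen 1 of day 7 had letter B and its whole array C. In specimens 1 and 2 of day 33 and 1 of day 105, only 1 captured array shared the letter of the whole array. Study 1 had 25 arrays of captured cells from 15 specimens at days 7, 17, 33, 46 and 104 (4, 4, 3, 3 and 1 specimens as counted here). Code 003 of day 7 may be code 3 again, and 1 day 33 array has no code and was counted as its own specimen, so there may be fewer. Code 5 of day 7 may hold more than 1 animal, as described below. Study 1 also had 12 arrays of whole granuloma from 8 specimens at days 7, 17, 33 and 104 (2, 2, 3 and 1 specimens). Only 5 specimens of study 1 had both tissue types, and day 104 was 1 specimen code in each. Values are log2, arrays of 1 specimen and tissue type were averaged, and the SDs and tests below run over specimens. The labels do not say whether each specimen code is a separate animal, so p-values measure the spread between specimens as coded.

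Both tissue types went through 2 rounds of linear amplification, which shortens transcripts from their 5′ side. The length that survived can be read from control probe sets at the 3′ and 5′ ends of Gapdh and Actb: the 3′ value minus the 5′ value, averaged over both genes, is larger where less of the 5′ end remained. By array it was 4.14 ± 0.90 in captured cells of study 2 (SD, 30 arrays, range 0.46 to 5.31) and 1.61 ± 0.13 in whole granuloma of study 2 (15 arrays, 1.39 to 1.84). It was 4.49 ± 0.68 in captured cells of study 1 (25 arrays, 3.03 to 5.73) and 3.19 ± 0.36 in whole granuloma of study 1 (12 arrays, 2.65 to 3.74). In study 2 all but 1 captured array lay above every whole granuloma array. That array, from specimen 2 of day 49, had a difference of 0.46, while the other 5 arrays of its group had 3.78 to 4.25. The median of all probe sets on an array was 5.31 to 5.64 in captured cells and 7.11 to 7.33 in whole granuloma in study 2, and 4.97 to 5.11 and 5.73 to 5.82 in study 1, so captured cells and whole granuloma were compared on quantile-normalized values. In study 1, both arrays of the day 7 specimen coded 5 carried opposite sex-linked transcripts (Xist at 11.65 and 4.90, Eif2s3y at 2.83 and 7.70). Levels of the lead Malat1 probe set were alike (13.41 and 13.46). This code may thus hold more than 1 animal, although it was averaged as 1 specimen. In each of the 4 sets (study by tissue type), 8 of 9 plasma cell markers were above the array median in every specimen. Markers of other cell types were not all at the floor in captured cells. Of 3 fat cell markers only Cidec was below the median in every captured specimen of study 2, and the mean level of the 3 was 3.51 to 8.80 in captured specimens and 4.14 to 12.16 in whole specimens. Of 5 smooth muscle markers only Myh11 was below it in every captured specimen of study 2 and 1 was above it in all, with a mean level of 4.57 to 6.85 in captured and 4.76 to 12.18 in whole specimens. In study 1 these means were 3.96 to 8.88 in captured and 9.62 to 11.82 in whole specimens for fat cell markers, and 4.20 to 5.19 and 7.80 to 10.84 for smooth muscle markers. The mean level of 5 macrophage markers was 7.83 to 9.98 in captured specimens and 8.87 to 11.06 in whole specimens of study 2, so these markers were not at the floor in captured cells.

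The 5 probe sets came from 3 source sequences. Probe sets 1418188_a_at and 1418189_s_at share one, 1427285_s_at and 1452378_at share another, and 1438403_s_at, the lead probe set because its mean over the 82 arrays was highest (10.73), has its own. Where on the transcript each lies was not given in the sources used here, and no order of abundance is read between probe sets. All 5 entered the tests, for which a probe set had to exceed the array median in at least 3 of the 53 specimen averages. The lead probe set and 1418189_s_at exceeded it in all 53, 1418188_a_at in 45, 1452378_at in 33 and 1427285_s_at in only 5. The last probe set thus sat near the floor almost everywhere.

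In study 2 the lead probe set was higher in captured cells than in whole granuloma of the same specimen code in 15 of 15 specimens. The largest difference, 5.93, was that of specimen 1 of day 7, whose captured and whole arrays had different letters. On the quantile-normalized scale the captured specimens had 13.10, 11.01 and 10.64 at day 7, 11.10, 9.98 and 11.53 at day 17, 9.74, 10.60 and 10.45 at day 33, 9.75, 11.80 and 10.83 at day 49, and 9.30, 9.26 and 10.10 at day 105. The whole granuloma specimens had 7.18, 6.88 and 7.82 at day 7, 6.96, 7.68 and 9.02 at day 17, 6.25, 6.62 and 6.67 at day 33, 9.11, 9.29 and 7.33 at day 49, and 6.59, 6.30 and 7.25 at day 105. Of the 15 captured values, 14 lay above the highest whole granuloma value (9.29), and the lowest, 9.26 at day 105, lay just under it. On the deposited values only 7 of 15 lay above the highest whole value (10.62). Neither count was made for all probe sets. The difference averaged over days was 3.22 (SE 0.25), a ratio of 9.29. By day it was 4.30, 2.98, 3.75, 2.21 and 2.84 from day 7 to day 105 (SE 0.55 each). The background was wide: in this comparison 34.6% of the 14286 probe sets tested were higher in captured cells, 35.9% were lower, and 9.04% were higher in every one of the 15 specimens.

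The other 4 probe sets did not follow the lead in step. Probe set 1418188_a_at was also higher in captured cells in 15 of 15 specimens, by 2.71 (SE 0.29), with differences by specimen from 0.25 to 5.69. Probe set 1418189_s_at, from the same source sequence, differed by only 0.57 (SE 0.28) and was higher in 11 of 15 specimens. Probe set 1427285_s_at differed by 0.36 (SE 0.13, 14 of 15 specimens) at levels of 4.17 to 6.09 in captured cells and 4.01 to 4.77 in whole granuloma, near the floor in both. Probe set 1452378_at was lower in captured cells in 12 of 15 specimens and higher in 3, with a mean difference of -0.31 (SE 0.27). Of the 3 exceptions, 2 were specimens 1 and 2 of day 7.

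The scaling set the size of all 5 differences. As deposited, the median of all probe sets was 1.69 lower in captured cells, and the differences were 1.61 for the lead, 0.93 for 1418188_a_at, -0.77 for 1418189_s_at, -1.32 for 1427285_s_at and -2.18 for 1452378_at. The lead and 1418188_a_at were thus above whole granuloma on the deposited values too (13 and 12 of 15 specimens), while 1418189_s_at and 1427285_s_at changed direction. After centring every array on its own median, the lead differed by 3.48, 1418188_a_at by 2.81 and 1418189_s_at by 1.11. Specimen 2 of day 49 holds the array with the lowest 3′ minus 5′ difference. In this specimen the lead differed by 2.51 quantile-normalized, 0.97 centred and -0.79 as deposited. The 3′ minus 5′ difference separates the tissue types as well: with it as a covariate the lead differed by 3.27 and 1418188_a_at by 3.55, but 1418189_s_at by -0.23. In bulk RNA, fewer cells of a type and less RNA per cell cannot be told apart.

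**Figure D1:**
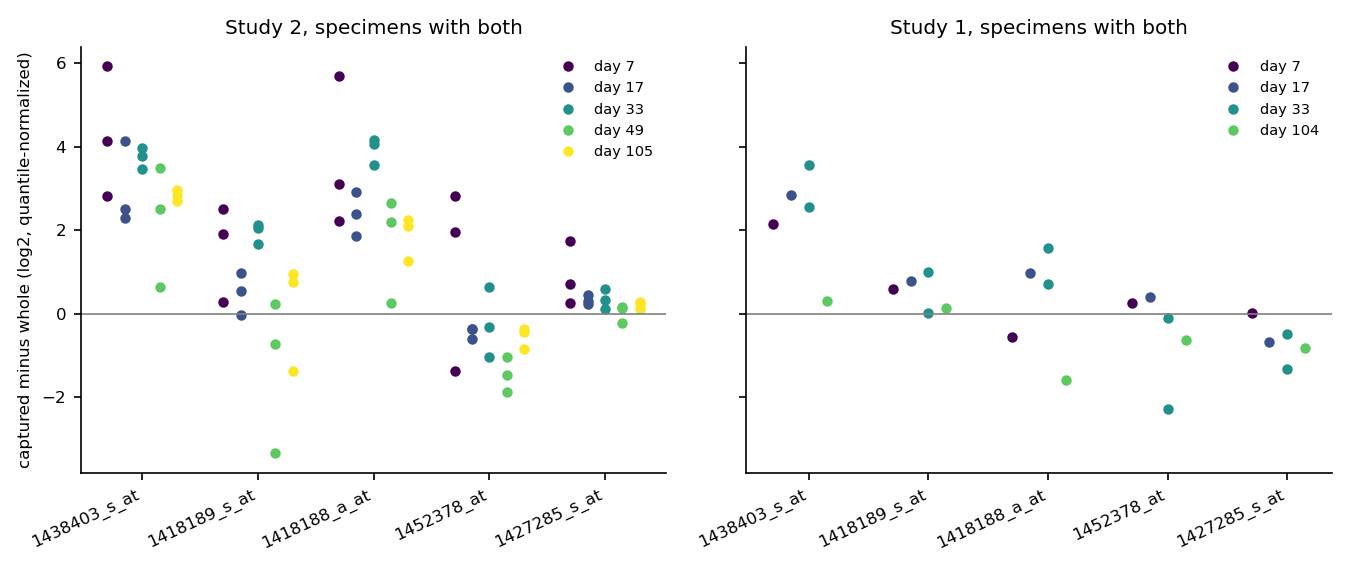
Captured minus whole difference (log2, quantile-normalized) of each specimen with both tissue types, by Malat1 probe set and day, in study 2 (left, 15 specimens) and study 1 (right, 5 specimens). The lead probe set 1438403_s_at lies above 0 in every specimen of both studies, whereas 1418188_a_at does so only in study 2 and 1452378_at lies on both sides of 0.

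Study 1 had the same sign for the lead probe set, in 5 of 5 specimens, with a mean difference of 1.97 (SE 0.35). By specimen the captured and whole values were 12.94 and 10.79 at day 7, 13.59 and 10.73 at day 17, 13.39 and 10.84, and 13.28 and 9.71 at day 33, and 12.16 and 11.87 at day 104. The day 104 specimen, with a difference of 0.30, stood below the 4 earlier ones (2.15 to 3.57). Over all specimens, 13 of 15 captured values lay above the highest whole value, a count not made for all probe sets. In study 1, 32.2% of probe sets tested were higher in captured cells and 29.3% lower, and 29.8% were higher in all 5 specimens, so that sign in 5 of 5 was common. Probe set 1418188_a_at showed no clear direction: it differed by -0.07 (SE 0.42), with 3 of 5 specimens higher, by -0.47 as deposited and by 0.27 with arrays centred. The lead differed by 1.78 as deposited and 2.52 centred in study 1, where the median of all probe sets was -0.60 and 0.14. Probe set 1418189_s_at differed by 0.40 (SE 0.39, 5 of 5 specimens), 1452378_at by -0.52 (SE 0.38, 2 of 5) and 1427285_s_at by -0.63 (SE 0.18, 1 of 5).

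The distance between the lead and another Malat1 probe set within a specimen was read on the deposited values, where a shift common to all probe sets of an array cancels. Its size has no meaning of its own, and it is compared only between tissue types. The lead minus 1452378_at was 5.46 ± 0.56 in captured cells of study 2 (SD, n = 15, range 4.30 to 6.29) and 1.67 ± 0.77 in whole granuloma (n = 15, 0.67 to 3.19). These ranges do not overlap, but how often this holds for probe sets of other genes was not counted. In captured cells of study 2, 1452378_at was above the array median in only 3 of 15 specimens. In the other 12 it was 4.08 to 5.33, and where it lay near its floor the distance can only be a minimum. In study 1 the same distance was 4.48 ± 0.87 in captured cells (n = 15, 2.33 to 5.64) and 1.45 ± 0.99 in whole granuloma (n = 8, -0.58 to 2.60). The lead minus 1418189_s_at was 0.41 ± 0.76 in captured cells and -1.95 ± 0.42 in whole granuloma of study 2, and 1.25 ± 0.78 and -0.46 ± 0.66 in study 1. The lead minus 1418188_a_at moved little in study 2 (2.30 ± 0.56 captured, 1.62 ± 0.32 whole) but more in study 1 (2.54 ± 0.67 captured, 0.28 ± 0.25 whole). These distances rest on the contrast that chose the gene and are given without a test. They differ between tissue types that also differ in the 3′ minus 5′ value, and the part of one in the other was not tested within them.

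**Figure D2:**
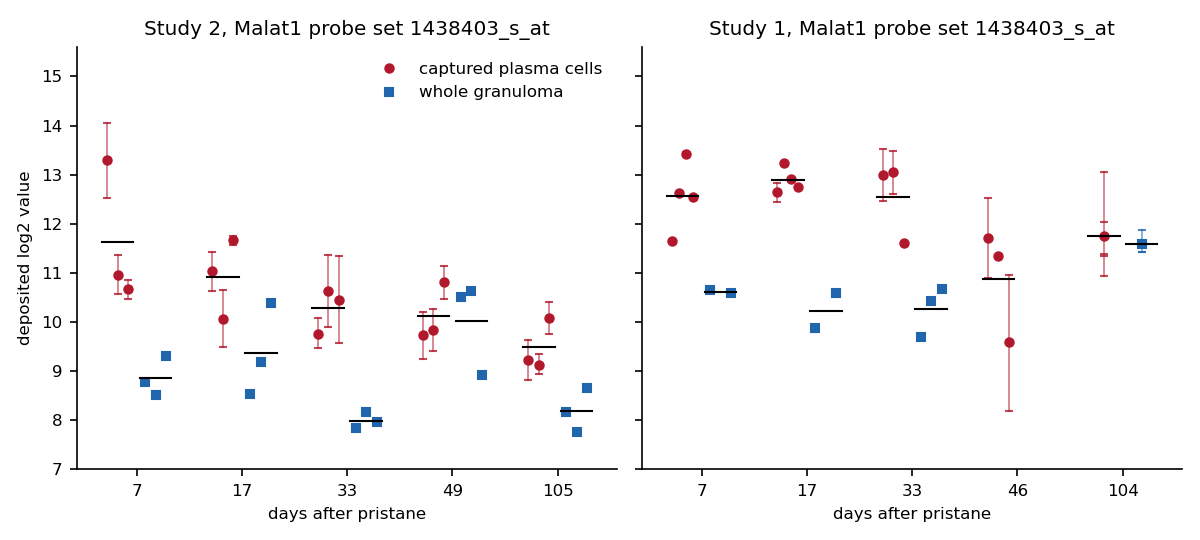
Deposited log2 values of the lead Malat1 probe set 1438403_s_at by day, study 2 (left) and study 1 (right), captured plasma cells as circles and whole granuloma as squares. Each point is a specimen average, thin bars with ticks are its arrays, and black lines are group means. In study 2 the captured means run from 11.64 at day 7 to 9.48 at day 105.

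The differences among days were not used to choose Malat1, and they were tested on the deposited values with limma over 14286 probe sets. In captured cells of study 2 the lead probe set had 13.29, 10.96 and 10.66 at day 7, 11.03, 10.06 and 11.66 at day 17, 9.76, 10.63 and 10.45 at day 33, 9.73, 9.83 and 10.81 at day 49, and 9.23, 9.13 and 10.08 at day 105. Each of the day 105 specimens lay below each of the day 7 specimens, but the share of all probe sets so separated was not counted. The day means were 11.64 ± 1.44, 10.92 ± 0.81, 10.28 ± 0.46, 10.12 ± 0.60 and 9.48 ± 0.52 (SD, n = 3 each). The moderated F test among the 5 days gave F = 4.25 with a limma adjusted p of 0.0451, where 14.4% of all probe sets passed. It gave F = 4.64 and an adjusted p of 0.0344 for 1418188_a_at, and F = 4.30 and 0.0436 for 1418189_s_at. Probe sets 1452378_at (0.0693) and 1427285_s_at (0.354) did not pass. These 3 calls sat at the threshold. With no filter on low values the adjusted p was 0.0663 for the lead, 0.0525 for 1418188_a_at and 0.0653 for 1418189_s_at, and with the 3′ minus 5′ difference as a covariate 0.213, 0.0732 and 0.304. The lead's call was also lost without any 1 of 20 of the 33 specimens (adjusted p up to 0.198), among them all 3 of day 105, all 3 of day 33 and specimen 1 of day 7. For 1418189_s_at it was lost without any 1 of 16 (up to 0.125) and for 1418188_a_at without any 1 of 5 (up to 0.112). On quantile-normalized values the adjusted p was 0.0855 for the lead, 0.0542 for 1418189_s_at and 0.0539 for 1418188_a_at. There the lead value of specimen 2 of day 49 was 11.80, against 9.83 as deposited. Probe set 1452378_at passed without specimen 3 of day 7 (F = 7.56, adjusted p = 0.00424) or 1 day 46 specimen of study 1 (0.0488).

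In all, 3 Malat1 probe sets fell in captured cells of study 2 at day 105 relative to day 7, where 2.95% of all probe sets were lower and 4.19% higher. The lead fell by 2.15 on the log2 scale (SE 0.56, 95% interval -3.29 to -1.02, limma adjusted p = 0.0141), a ratio of 0.225. Probe set 1418188_a_at had 6.05, 6.42 and 7.10 at day 105, against 11.63, 8.59 and 8.11 at day 7, and fell by 2.92 (SE 0.70, adjusted p = 0.00723). Probe set 1418189_s_at had 7.95, 9.15 and 9.69 at day 105, against 12.36, 11 and 10.12 at day 7, and fell by 2.23 (SE 0.65, adjusted p = 0.0284). In both, no day 105 specimen reached the lowest of day 7, a separation not counted over all probe sets. Probe set 1452378_at had 4.12, 4.77 and 4.60 at day 105, against 8.12, 6.66 and 4.48 at day 7. Its difference of -1.93 (SE 0.63) had an adjusted p of 0.0544, and its groups overlapped. Near the floor, 1427285_s_at differed by -0.59 (SE 0.29, adjusted p = 0.247).

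Specimen 1 of day 7 was the highest captured specimen of study 2 in all 5 probe sets. Without it the lead differed by -1.33 (adjusted p = 0.323), 1418188_a_at by -1.83 (0.223), 1418189_s_at by -1.63 (0.342) and 1452378_at by -1.08 (0.598), so no probe set passed. The lead was also past the threshold no longer without specimen 1 (-2.03, adjusted p = 0.0501) or specimen 2 (-1.98, 0.0716) of day 105. For 1418189_s_at that held without specimen 2 of day 7 (-2.31, 0.0567) and without specimen 1 (-1.74, 0.152) or specimen 2 (-2.34, 0.0648) of day 105. The difference of 1452378_at passed without specimen 3 of day 7 (-2.90, 0.00213), which was its lowest of that day. It also passed without specimen 2 of day 49 (-1.93, 0.0492) and without either of 2 day 46 specimens of study 1 (-1.93, 0.0369 and 0.0469). RNA quality moved with the days: the 3′ minus 5′ difference was 3.46 ± 0.30 at day 105 and 4.66 ± 0.28 at day 7 (SD, n = 3 each). With it as a covariate the lead differed by -1.72 (adjusted p = 0.0846) and 1418189_s_at by -1.89 (0.108), and only 1418188_a_at kept its call (-3.06, 0.0169). Without the covariate no listed cell type marker passed limma, where 2993 of 14286 probe sets had an unadjusted p under 0.05. Of 9 plasma cell markers 0 passed and 3 had an unadjusted p under 0.05 (median difference 0.67). Of 3 fat cell markers 0 passed and 2 had an unadjusted p under 0.05 (median -2.76), and of 4 neutrophil markers 0 passed and 1 had one (median -1.37). Their part in the fall of Malat1 was not tested.

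**Figure D3:**
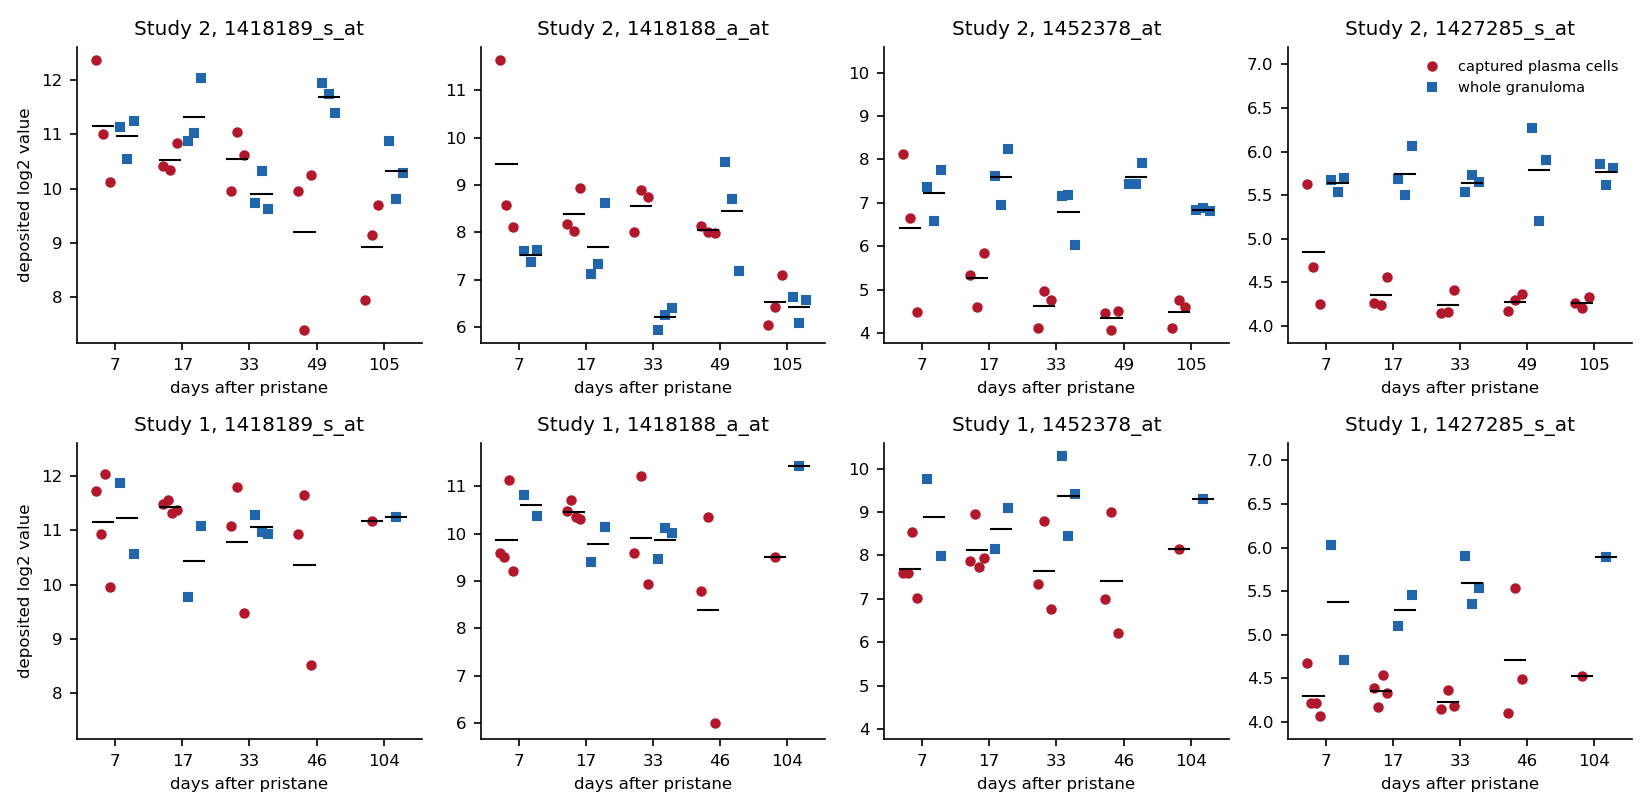
Deposited log2 values of the other 4 Malat1 probe sets by day in study 2 (top) and study 1 (bottom), each point a specimen average, with captured plasma cells as circles and whole granuloma as squares, and black lines as group means. In captured cells of study 2 1 specimen of day 7 is the highest in every panel, at 12.36, 11.63, 8.12 and 5.63.

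Whole granuloma of study 2 followed another course. The lead probe set had 8.77, 8.51 and 9.31 at day 7, 8.53, 9.19 and 10.39 at day 17, 7.83, 8.17 and 7.96 at day 33, 10.51, 10.62 and 8.91 at day 49, and 8.16, 7.76 and 8.65 at day 105. Specimens 1 and 2 of day 49 were the highest of all 15, and 2 of the 3 lowest came from day 33. The F test among days gave F = 4.42 (limma adjusted p = 0.0278), where 23.1% of all probe sets passed. It was not passed by 1418188_a_at (0.0578), 1418189_s_at (0.151), 1452378_at (0.688) or 1427285_s_at (0.988). The lead's call was lost without specimen 1 or 2 of day 49 (F = 3.10 and 2.97, adjusted p = 0.0910 and 0.0828), specimen 1 or 3 of day 33 (0.0603 and 0.0581) or specimen 2 of day 105 (0.0805). The 3′ minus 5′ difference varied little here, with day means of 1.48 to 1.72, and with it as a covariate the lead kept F = 4.27 (adjusted p = 0.0308). Smooth muscle markers moved with the days in these sections: 5 of 5 were lower at day 105 than at day 7, and 5 of 9 plasma cell markers were higher. Lower too were 2 of 3 mesothelial, 2 of 4 neutrophil and 1 of 3 fat cell markers. Of 5 macrophage markers 1 was higher and 2 lower, and of 4 T and NK cell markers 0 passed. Their part in the course of Malat1 was not tested. The difference between day 105 and day 7 was -0.67 for the lead (SE 0.56, adjusted p = 0.453), and no Malat1 probe set passed (adjusted p 0.300 to 0.819), where 11.1% of all probe sets were lower and 6.81% higher.

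The change in captured cells minus the change in whole granuloma of study 2 was -1.48 for the lead (SE 0.75, 95% interval -3 to 0.04, limma adjusted p = 0.277). The other 4 probe sets gave -0.72 to -1.82 with adjusted p of 0.282 to 0.320. None passed, where 3.72% of all probe sets did. Without specimen 1 of day 7 the lead's value was -0.61, and without specimen 3 of day 7 it was -2.19, neither past the threshold. Without specimen 3 of day 7 the difference of 1452378_at passed (-2.77, adjusted p = 0.0386).

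Study 1 gave no call over days. In captured cells the lead had 12.62, 13.43, 12.54 and 11.65 at day 7, 12.91, 12.75, 12.64 and 13.23 at day 17, 13.05, 12.99 and 11.61 at day 33, 11.70, 11.34 and 9.58 at day 46, and 11.75 at day 104. The lowest was a day 46 specimen. Titles of nearly all captured arrays of study 1 hold a date, whose meaning the labels do not give. Arrays dated March or April, all of day 46 or 104, had 8.19 to 11.39 for the lead. Earlier ones, dated September to January, had 11.61 to 13.52. In 1 specimen of day 46 the lead was 12.52 on an earlier and 10.89 on a later date. In that of day 104 it was 12.03 and 13.06 earlier and 10.94 to 11.39 later. The part of the dates in differences among days was not tested. The F test gave F = 4.30 with an unadjusted p of 0.00552, close to that of study 2, but a limma adjusted p of 0.203 since only 0.707% of all probe sets passed here. Day 104 minus day 7 was -0.81 (SE 0.77, 95% interval -2.37 to 0.75, adjusted p = 0.869), and no Malat1 probe set passed (0.869 to 1), where 0.427% of all probe sets were lower and 0.371% higher. In whole granuloma the lead had 10.64 and 10.58 at day 7, 9.87 and 10.58 at day 17, 10.67, 9.70 and 10.43 at day 33, and 11.58 at day 104. The F test gave an adjusted p of 1 for all 5 probe sets (unadjusted p 0.323 to 0.734), where 0.021% of all probe sets passed. The lead's day 104 specimen lay above all earlier ones by a difference of 0.97 from day 7 (SE 0.84, adjusted p = 1). In that limma comparison 0% of all probe sets were lower and 0% higher after adjustment, and 389 of them had an unadjusted p under 0.05, none of them Malat1 (0.242 to 0.982). The change in captured cells minus that in whole granuloma was -1.78 for the lead (SE 1.09, adjusted p = 1), with 0% of all probe sets called and 460 at an unadjusted p under 0.05, and no Malat1 probe set among them (0.110 to 0.994). Day 104 rests on 1 specimen in each tissue type, whose spread is taken to be that of the other groups.

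The change in captured cells was also compared between the cohorts. Study 2 minus study 1 was -1.34 for the lead (SE 0.95) and -2.57 for 1418188_a_at (SE 1.19). For 1452378_at it was -2.36 (SE 1.08), for 1418189_s_at -2.22 (SE 1.11) and for 1427285_s_at -0.79 (SE 0.50). Day 104 of study 1 was 1 specimen. The lead's value was -0.52 without specimen 1 and -1.83 without specimen 3 of day 7 of study 2. No Malat1 probe set passed, where 0.119% of all probe sets did.

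**Figure D4:**
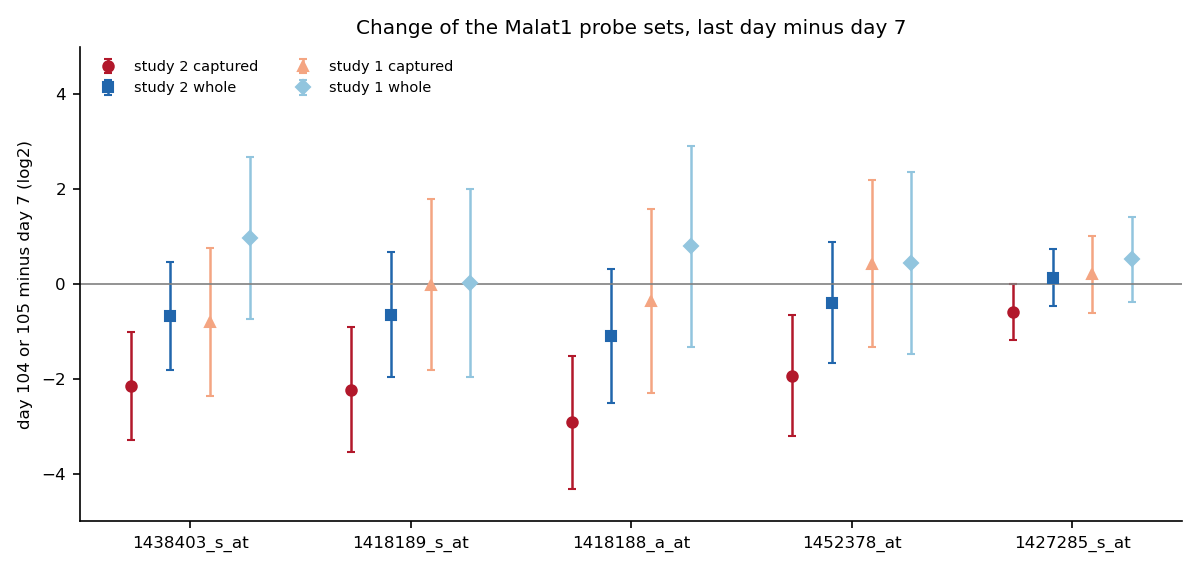
Difference of the last day (105 in study 2, 104 in study 1) minus day 7 for each Malat1 probe set (log2, deposited values), with 95% intervals from limma. The intervals of the lead, 1418189_s_at, 1418188_a_at and 1452378_at lie below 0 in captured cells of study 2, and all other intervals hold 0.

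Within a study and tissue type, Malat1 was set against the 3′ minus 5′ difference over specimens (20 relations, p adjusted over them). In captured cells of study 2, probe set 1418189_s_at rose with it: Pearson r was 0.82 (n = 15, permutation p = 0.00023, adjusted 0.0046) and Spearman rho 0.81 (permutation p = 0.00042, adjusted 0.0084). Without the 2 specimens farthest from the median of the 3′ minus 5′ difference, r was 0.74. Without specimen 2 of day 49 the adjusted p was 0.0978, and as deviations from the day means r was 0.65 with an adjusted p of 0.0810. The lead gave r = 0.61 (n = 15, permutation p = 0.0228, adjusted 0.152) and rho = 0.65 (permutation p = 0.0104, adjusted 0.0519). Probe set 1418188_a_at gave r = 0.55 (permutation p = 0.0446, adjusted 0.206) and rho = 0.74 (permutation p = 0.00212, adjusted 0.0212). Without the array of specimen 2 of day 49 that stood apart, a step added after seeing the data, r was 0.69 for the lead and 0.71 for 1418188_a_at, both with an adjusted p of 0.0253. On quantile-normalized values r was only 0.23 for the lead and 0.36 for 1418188_a_at, and as deviations from the day means 0.37 and 0.23, none past the threshold. Normalization moved specimen 2 of day 49, which holds that array, from 9.83 to 11.80 for the lead. For 1418188_a_at it moved from 8.02 to 9.33. The part of this specimen in the lower r on quantile-normalized values was not tested.

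In captured cells of study 1 the lead gave r = 0.48 (n = 15, permutation p = 0.0723, adjusted 0.241) and rho = 0.68 (permutation p = 0.00647, adjusted 0.0431). The day 46 specimen with the lowest lead value (9.58) had a 3′ minus 5′ difference of 4.71, and without it r was 0.85 (adjusted p = 0.00100). With Actb alone in place of both controls r was 0.10, and with Gapdh alone 0.66 (adjusted p = 0.0571). Probe set 1418189_s_at, which followed the 3′ minus 5′ difference most closely in study 2, gave r = -0.02 in study 1 (permutation p = 0.942, adjusted 0.958) and rho = 0.02. For 1427285_s_at r was -0.68 (permutation p = 0.0126, adjusted 0.126) and 0.16 without the 2 farthest specimens, so that it rested on those. In whole granuloma no relation passed in either study (adjusted p 0.444 to 0.958 for r).

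**Figure D5:**
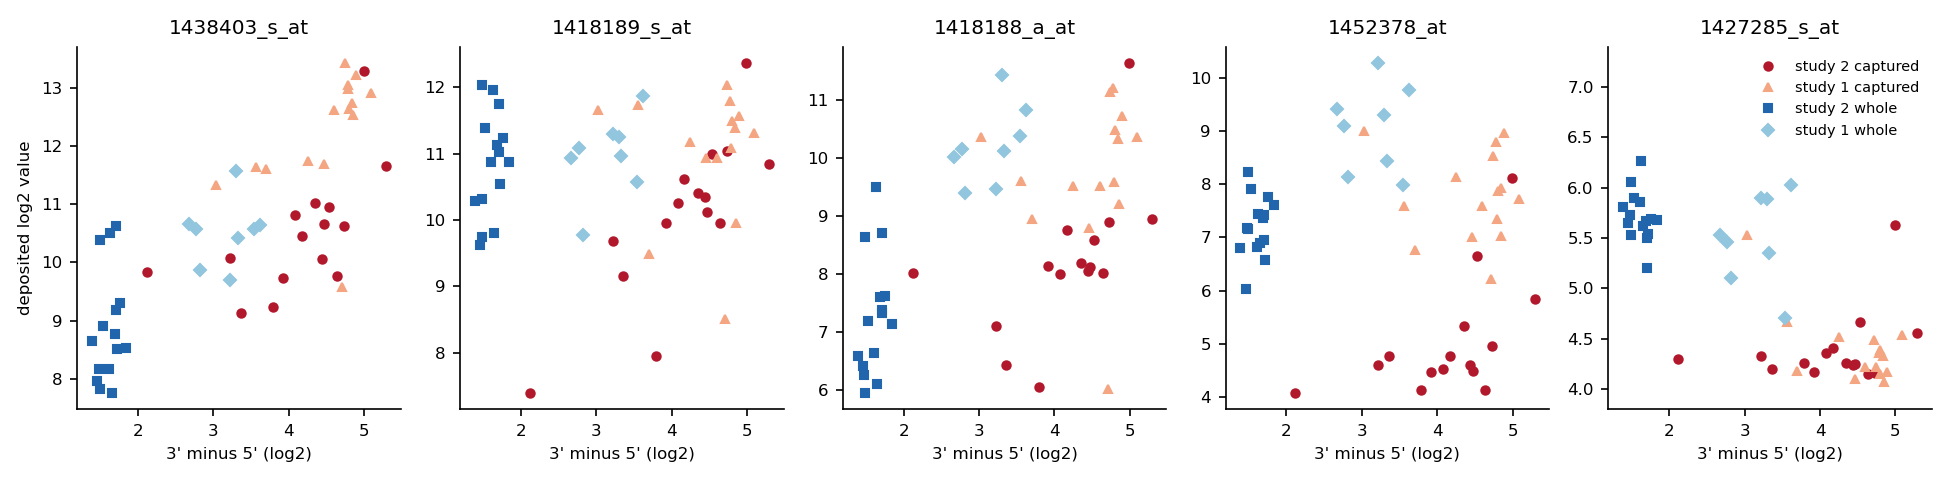
Deposited log2 value of each Malat1 probe set (vertical) against the 3′ minus 5′ difference of Gapdh and Actb (horizontal, log2), each point a specimen average, by study and tissue type. Within captured cells of study 2 (circles) 1418189_s_at rises along the axis, and whole granuloma of study 2 (squares) spans only 1.39 to 1.84.

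Repeat arrays of a captured specimen varied about as much as specimens of a day. For the lead the SD of arrays within a specimen was 0.69 in captured cells of study 2 and the SD of specimens within a day 0.84. In captured cells of study 1 these were 0.95 and 0.76, and 1 specimen's arrays spanned 2.77. In whole granuloma of study 1 the SDs were 0.20 for arrays and 0.44 for specimens. The array of specimen 2 of day 49 in study 2 showed how unequally the probe sets could respond. It had 4.72 for 1418189_s_at while the other arrays of its group had 9.57 to 10.45, yet 7.56 for 1418188_a_at from the same source sequence, where the others had 7.53 to 8.74.

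As a description with no test, the lead correlated with 1418188_a_at at r = 0.90 in captured cells and 0.95 in whole granuloma of study 2 (15 specimens each), and at 0.85 (15) and 0.93 (8) in study 1. This was the closest of the lead's relations in each of the 4 sets. With 1427285_s_at, near the floor, the lead gave 0.85, 0.23, -0.39 and 0.21 in the same order. Points of a set share arrays and amplification.

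Of 9 other nuclear noncoding RNAs listed, 5 were on the array and tested. In study 2, 1 was higher in captured cells and 2 were lower (list median 0.32, all probe sets -0.02), where 34.6% of all probe sets were higher and 35.9% lower. In study 1 none was higher and 2 were lower, where 32.2% of all were higher and 29.3% lower. Tug1, a noncoding RNA found in nucleus and cytoplasm, was higher by 0.92 (SE 0.12, limma adjusted p = 1.51e-08), but it was lower in study 1 (-0.57, adjusted p = 0.00476). Neat1, the scaffold of paraspeckles and the genomic neighbour of Malat1, was lower by 1.47 on the log2 scale (difference -1.47, adjusted p = 2.12e-06) and lower in study 1 too (-0.94, adjusted p = 0.0210). Rian, an imprinted noncoding RNA, was lower in study 2 (-0.44, adjusted p = 0.00625). As deposited all 5 were lower in captured cells of study 2, where the median of all probe sets was -1.69. At day 105 relative to day 7 in captured cells of study 2, 2 of the 5 fell, where 2.95% of all probe sets were lower and 4.19% higher. These were Airn, an imprinted antisense RNA (difference -2.56, limma adjusted p = 0.00175), and Meg3, an imprinted noncoding RNA (-1.13, adjusted p = 0.0290). On quantile-normalized values only 1 of the 5 listed RNAs passed, as lower. In captured cells of study 1, Meg3 was lower at day 104 than at day 7 by 2.63. Day 104 there was only 1 specimen. Neat1 differed by 0.50 (adjusted p = 0.697) in captured cells of study 2 at day 105.

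Of 15 hosts of small nucleolar RNAs and other noncoding RNAs listed, 8 were on the array and 7 tested. Of these, 6 were higher in captured cells and 0 lower in study 2 (34.6% and 35.9% of all probe sets), and 6 were higher and 1 lower in study 1 (32.2% and 29.3%). Pvt1, a noncoding RNA next to Myc, was higher by 1.74 (adjusted p = 1.15e-15) and 1.33 (2.58e-08) in studies 2 and 1, Snhg6 by 1.14 and 2.13, and Gas5, a host of small nucleolar RNAs, by 1.03 in each. On the deposited values none of the 7 was higher in study 2 and 6 were lower, and 5 were higher and 1 lower in study 1. The median of all probe sets was then -1.69 in study 2 and -0.60 in study 1. Shares of all probe sets called were not counted on those values. At day 105 relative to day 7 in captured cells of study 2, Dleu2 alone fell (-1.43, adjusted p = 0.0488), and none rose. Of all probe sets 2.95% were lower and 4.19% higher. With every array centred on its own median, 0 of the 7 passed.

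Of 18 proteins of the nuclear speckle tested, 9 were higher and 6 lower in captured cells in study 2, and 4 higher and 2 lower in study 1, beside the same shares of all probe sets. As deposited 0 were higher and 17 lower in study 2, and 2 higher and 10 lower in study 1. The median of all probe sets was then -1.69 in study 2 and -0.60 in study 1. Shares of all probe sets called as deposited were not counted, for this list and those below. Son, a scaffold protein of speckles, was higher by 1.23 (adjusted p = 1.31e-08) and 1.26 (1.21e-05) in studies 2 and 1, while the splicing factor Srsf5 was lower (-1.70 and -0.72, adjusted p = 8.86e-10 and 0.0261). Son was also the 1 speckle gene that fell in captured cells of study 2 at day 105 (-1.83, adjusted p = 0.00409), where 2.95% of all probe sets were lower. Of 8 paraspeckle proteins, 1 was higher and 2 lower in study 2 (Matr3 0.40, Hnrnpm -1.07, Nono -0.72), and 1 was higher and 1 lower in study 1. Of all probe sets 34.6% were higher and 35.9% lower in study 2, and 32.2% and 29.3% in study 1. As deposited all 8 paraspeckle genes were lower in study 2, and 3 were lower in study 1. Among 8 genes listed for the processing of the Malat1 3′ end, most of them RNase P subunits, 6 were higher and 0 lower in study 2. In study 1, 7 were higher in captured cells and 0 lower. These counts stand beside the same shares of all probe sets. The RNase P subunit Rpp21 was higher by 2.19 (adjusted p = 1.14e-18) and 0.62 (0.00204) in studies 2 and 1, and Elac2, which cuts the other end of tRNAs, by 0.30 and 0.88. As deposited 1 of these 8 was higher and 7 lower in study 2 (median -0.97). In study 1 as deposited the median was -0.07, with 0 calls by limma and 0 at an unadjusted p under 0.05. Of 6 genes around Malat1 tested, 1 was higher and 2 lower in captured cells in each study (all probe sets 34.6% higher and 35.9% lower in study 2, 32.2% and 29.3% in study 1), with Slc25a45 the higher one (0.38 and 0.40). As deposited all 6 were lower in both studies. At day 105 relative to day 7 in captured cells of study 2, 0 of the 6 passed in limma and 1 had an unadjusted p under 0.05. At that unadjusted level were 2993 of all 14286 probe sets. Of all probe sets 2.95% were lower and 4.19% higher.

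The genes most like the lead were found over 8591 genes and the 53 specimen averages on the quantile-normalized scale, without tests. By deviations from the group mean these were Pfdn1 (r = 0.71), Nsa2 (0.70), Mau2 (0.68), Ankrd33b (0.66) and Ccm2 (0.65). The other Malat1 probe sets gave 0.83 for 1418188_a_at, 0.44 for 1452378_at, 0.43 for 1418189_s_at and 0.16 for 1427285_s_at by the same measure. Only 1418188_a_at was thus closer to the lead than the 5 genes. By the levels themselves, which hold the difference between tissue types, the closest were Zfp329 (0.93), Tsc1 (0.91), Pvt1 (0.91), Irak1 (0.91) and Ccdc84 (0.90), beside 0.93 for 1418188_a_at and 0.73 for 1418189_s_at. The averages share arrays, amplification and scaling.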

How the data were processed

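The deposited values are log2 expression values per probe set on a mouse Affymetrix array (22690 probe sets, 82 arrays), for which the submitters' processing notes name RMA and Partek; versions and background settings were not given in the sources used here. Medians differed between sets of arrays, so captured and whole values were compared after quantile normalization of all arrays, and days on the deposited values. Arrays of 1 specimen and tissue type were averaged (53 averages, 19 groups, 33 specimen codes). Probe sets above the array median in at least 3 averages were tested (14286) with limma 3.58.1 in R 4.3.3, with the specimen as a random block (correlation 0.112 on deposited and 0.103 on quantile values, 34 residual degrees of freedom) and Benjamini-Hochberg adjustment at 0.05. The pairing of captured and whole samples comes from specimen codes in the labels. Correlations used permutation tests (100000 resamples, or exact for 8 specimens) in SciPy 1.17.1 with Python 3.11.15. The permutation correlation was tested on simulated data. The number of arrays limits precision. The lead probe set has the highest mean. Like genes are the 5 with the highest correlation by each measure. Members and lists were chosen with earlier results of these data known. Alternatives were other scalings, no filter, no block, a 3′ minus 5′ covariate, single controls, and each specimen left out. Gene names came from the platform annotation and RefSeq tables of GRCm38.p6.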

Additional observations from a re-analysis of the deposited data

Results flagged for a closer look

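Single arrays far from the rest of their group were looked for in the 5 captured groups of study 2 (6 arrays each) and the 5 of study 1 (5 arrays each), 60 combinations of group and measure, by the gap to the nearest array as a share of the group's range. Whole granuloma groups, with 3 arrays each, were not searched. In all 5 were found. Chance alone gives about 1 in 20 groups. All 5 were in study 2. At day 49, 1 array of specimen 2 had 4.72 for 1418189_s_at (others 9.57 to 10.45) and a 3′ minus 5′ difference of 0.46 (others 3.78 to 4.25). At day 17, single arrays had 11.16 for 1418189_s_at (others 10.33 to 10.52) and 4.75 for 1427285_s_at (others 4.18 to 4.37). At day 7, 1 array of specimen 1 had 6.67 for 1427285_s_at (others 4.16 to 4.69).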

How the results depend on the processing

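For the lead probe set in captured cells of study 2, the F among days was 4.15 with no filter, 2.27 with the 3′ minus 5′ covariate and 3.40 on quantile-normalized values, all past the threshold no longer, and 2.42 to 5.25 with 1 specimen left out. Day 105 minus day 7 was -1.72 with the covariate, also no longer past it, and -2.64 to -1.33 with 1 specimen left out. In whole granuloma of study 2 the F was 2.97 to 6.03 with 1 left out. The difference between tissue types in study 2 was 1.61 as deposited. Leaving out the replicate block changed no call of the lead. It could not move day 105 minus day 7 (-2.15), which compares different specimens that each have both tissue types. Against the 3′ minus 5′ difference the lead's r passed at 0.69 without the day 49 array, and ran from 0.56 to 0.70 in study 2 and 0.43 to 0.85 in study 1 (captured) with 1 left out; it was 0.23 on quantile values and 0.37 as deviations in study 2, and 0.10 with Actb alone in study 1. It reversed in whole granuloma of study 2 with Gapdh alone (-0.11) and as deviations from day means (-0.36), and of study 1 as deviations (-0.48). None of these reversed relations had passed. Deviations also reversed r for 1418189_s_at (-0.35), 1418188_a_at (-0.24) and 1452378_at (-0.24) in whole granuloma of study 2, 1418188_a_at in study 1 (captured -0.29, whole -0.11) and 1452378_at (whole -0.08). Gapdh alone reversed 1418188_a_at in whole granuloma of study 2 (-0.03), and 1418189_s_at (0.18) and 1452378_at (0.15) in captured cells of study 1. Actb alone reversed 1418188_a_at in captured cells (-0.33), 1452378_at (-0.12) and 1427285_s_at (-0.04) in whole granuloma of study 1. With 1 left out r ran in study 1 from -0.22 to 0.14 (1418189_s_at) and -0.25 to 0.28 (1452378_at) in captured cells, and from -0.20 to 0.33 (1452378_at) and -0.17 to 0.66 (1427285_s_at) in whole granuloma. In study 1, the day 104 difference of 1418189_s_at in captured cells, -0.01, was 0.01 with no replicate block, 0.04 with the covariate or with code 003 as code 3, and 0.02 on quantile values; in whole granuloma it was -0.01 on quantile values. The tissue difference in that change was 0.03 for 1418189_s_at on quantile values and 0.01 for 1452378_at with no replicate block. With 1 left out the study 1 differences ran from -0.42 to 0.27 (1418189_s_at) and -0.57 to 0.07 (1418188_a_at) in captured cells, -0.62 to 0.66 (1418189_s_at), -0.45 to 1.32 (1452378_at) and -0.13 to 1.18 (1427285_s_at) in whole granuloma, and -0.65 to 0.55 (1418189_s_at), -0.87 to 0.88 (1452378_at) and -0.95 to 0.33 (1427285_s_at) between tissue types. The causes were not tested.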
